A study of Mus musculus with 15 samples.

Results

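The genes of DNA replication and nucleotide supply were followed in Sca1+ spleen cells of 5 groups of transgenic mice that model high-risk myelodysplastic syndrome (HR-MDS) and acute myeloid leukemia that follows it (AML post MDS). The members were 44 genes chosen by function, of which 40 had a row of their own among the 14860 genes tested on Affymetrix Mouse Exon 1.0 ST arrays. Pcna, Rfc2, Rrm2 and Lig1 were not analysed here. Expression was measured in 15 arrays, 1 per mouse and 3 per group, all in the FVB/N strain. MRP8NRASD12 founder mice carried mutant NRASD12 under the MRP8 promoter, which is active in myeloid cells (arrays of mice 8157, 8158 and 8159). The tethBCL2 founder mice carried MMTVLTR-tTA and TetO-hBCL-2, so that a tetracycline-regulated activator drove human BCL-2 (mice 7758, 7465 and 7466). HR-MDS mice carried NRASD12 together with tethBCL2 (mice 8111, 8019 and 8398), and their spleens were taken at day 80 after birth. The MRP8hBCL2 founder mice carried human BCL-2 under the MRP8 promoter (mice 3012, 3386 and 3391). AML post MDS mice carried NRASD12 and hBCL-2, both under that promoter (mice 3622, 3626 and 3518), with spleens taken at day 36. The sources used here do not give the ages of the founder mice, so that age cannot be told apart from genotype. The labels give AML as the disease state of every mouse, founder mice too, and the groups were therefore read from the titles. The double transgenic mice came from crosses of each BCL2 line with hemizygote MRP8NRASD12 mice, and normal FVB/N spleens are not part of what was analysed here.

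Replication begins when the origin recognition complex (Orc1, Orc6), Cdc6 and Cdt1 load the MCM2-7 helicase on DNA in G1, a step called licensing that geminin (Gmnn) blocks and that Dtl ends by marking Cdt1 for destruction. Cyclin E with its kinase, Mcm10, Cdc45 and the GINS complex then activate the helicase, and primase and the polymerases alpha, delta and epsilon copy the strands, with the RFC clamp loader, the RPA single-strand binding proteins and the flap endonuclease Fen1 at the fork. Ribonucleotide reductase, thymidylate synthase and the thymidine kinases supply the deoxynucleotides. Many of these genes are transcribed in late G1 under E2F factors, and their mRNA is often read as a mark of cells that divide.

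Values are log2 levels of the deposited table, so that a difference of 1 is a change of 2-fold, and levels of different genes are not set against each other. Within each group the arrays are given in the order of the mouse numbers above. Array medians over all probe sets ranged from 6.55 (AML post MDS 3626) to 6.88 (MRP8NRASD12 8157). Over the genes tested, the tethBCL2 arrays had the lowest medians, at 6.73 to 6.76, and AML post MDS 3622 the highest, at 7.10. Markers of several cell types were present and differed between groups. Neutrophil markers (13 genes, median per array) were at 5.87 to 6.31 in tethBCL2 mice against 8.10 to 12.24 in all other arrays, with the lowest of the HR-MDS mice, 8398, at 8.10. B cell markers (9 genes) were at 10.62 to 12.0 in all arrays, while Ly6a, which encodes Sca1, was not analysed here. Germinal centre B cell markers (7 genes), of cells that divide fast, were at 5.64 to 6.67 in tethBCL2, 6.96 to 7.72 in HR-MDS, 7.03 to 7.27 in MRP8NRASD12 and 7.76 to 8.57 in AML post MDS mice. In MRP8hBCL2 mice they were at 6.75 and 6.74 in 3012 and 3386 and at 8.56 in 3391, which also had the highest plasma cell median (8 genes) of all arrays, at 9.86. T cell markers (8 genes) were at 10.20 to 10.91 in the MRP8hBCL2 and AML post MDS arrays and at 9.02 to 9.98 in the 9 others, with no overlap. The order of the groups thus differed between these marker lists, and their part in the levels described below was not tested. The Y-linked genes Eif2s3y and Kdm5d were low (3.64 to 4.56) in all MRP8NRASD12 mice and in AML post MDS 3518, and high (7.60 to 10.31) in the other 11 mice, so that genotype and sex cannot be told apart in the comparisons of tethBCL2, HR-MDS and MRP8hBCL2 mice with MRP8NRASD12. In that of AML post MDS with MRP8NRASD12 mice, 3518 had the Y-linked levels of the MRP8NRASD12 mice. The titles number the 6 MRP8hBCL2 and AML post MDS mice from 3012 to 3626 and the 9 others from 7465 to 8398. The 4 comparisons across these ranges called 3288 to 3594 genes each, the 4 comparisons within a range 2 to 1312. The labels name no batch, and the BCL2 promoter, the mouse numbers and anything else that separated the 6 arrays from the 9 cannot be told apart.

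Promoters were available for 33 of the 40 measured members in the RefSeq table of GRCm38.p6, each a window from 250 bases before to 50 bases from the start of the gene on. An E2F motif, counted as TTTCGCGC, TTTGGCGC, TTTCCCGC or TTTGCCGC on either strand, with overlapping matches counted apart, was in a window of 14 of these 33 members (42.4%) and of 704 of 27025 genes in the table (2.6%). The CCAAT box (the letters CCAAT on either strand, which can share an end base with the E2F letters) was in 21 of 33 members (63.6%) and in 41.1% of genes. The members with an E2F match were Orc1, Cdc6, Cdt1, Dtl, Mcm3, Mcm5, Mcm6, Mcm7, Pola1, Pole2, Pold1, Rfc3, Cdc25a and Uhrf1. The windows of Cdc6, Mcm6 and Uhrf1, where HR-MDS and tethBCL2 mice were far apart, and of Orc1 and Pold1, where they were close, are shown 5′ to 3′ with the E2F letters in capitals. Uhrf1 has a second window in the table, with no E2F match.
Cdc6 promoter (chr11:98907901-98908200, + strand): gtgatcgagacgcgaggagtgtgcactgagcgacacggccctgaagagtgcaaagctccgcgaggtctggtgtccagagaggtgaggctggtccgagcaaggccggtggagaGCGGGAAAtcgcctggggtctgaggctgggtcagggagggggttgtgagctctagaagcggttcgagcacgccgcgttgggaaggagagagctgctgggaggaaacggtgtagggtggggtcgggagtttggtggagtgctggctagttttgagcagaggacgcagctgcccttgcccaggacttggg
Mcm6 promoter (chr1:128359656-128359955, - strand): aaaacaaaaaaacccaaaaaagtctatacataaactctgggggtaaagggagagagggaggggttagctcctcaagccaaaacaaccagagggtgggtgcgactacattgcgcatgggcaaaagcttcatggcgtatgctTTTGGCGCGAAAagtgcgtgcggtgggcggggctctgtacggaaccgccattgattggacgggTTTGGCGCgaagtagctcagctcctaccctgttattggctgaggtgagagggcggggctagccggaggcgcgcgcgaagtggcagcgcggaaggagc
Uhrf1 promoter (chr17:56304063-56304362, + strand): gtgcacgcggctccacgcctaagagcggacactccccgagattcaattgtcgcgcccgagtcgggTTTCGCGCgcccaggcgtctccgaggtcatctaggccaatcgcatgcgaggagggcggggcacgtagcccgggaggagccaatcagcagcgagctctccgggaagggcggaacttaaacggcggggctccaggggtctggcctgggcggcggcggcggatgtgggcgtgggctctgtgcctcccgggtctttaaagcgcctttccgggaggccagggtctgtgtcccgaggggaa
Orc1 promoter (chr4:108579204-108579503, + strand): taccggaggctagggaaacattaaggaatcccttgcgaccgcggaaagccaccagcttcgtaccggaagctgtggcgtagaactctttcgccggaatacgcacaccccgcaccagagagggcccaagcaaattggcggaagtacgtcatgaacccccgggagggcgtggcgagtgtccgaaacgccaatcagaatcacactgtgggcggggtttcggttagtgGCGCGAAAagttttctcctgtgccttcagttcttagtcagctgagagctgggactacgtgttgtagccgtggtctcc
Pold1 promoter (chr7:44548766-44549065, - strand): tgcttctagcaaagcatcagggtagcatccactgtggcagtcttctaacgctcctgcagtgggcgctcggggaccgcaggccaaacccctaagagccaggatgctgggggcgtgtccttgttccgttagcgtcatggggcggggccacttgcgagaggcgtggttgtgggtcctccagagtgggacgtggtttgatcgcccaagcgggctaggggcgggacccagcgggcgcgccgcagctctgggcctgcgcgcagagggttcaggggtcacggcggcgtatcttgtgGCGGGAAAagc
The match in Cdc6 began 138 bases before the start of the gene, that in Uhrf1 185 bases and that in Orc1 27 bases before it, and that in Pold1 39 bases after it. Mcm6 held 3 matches, of which a pair overlap. The difference of HR-MDS from tethBCL2 ran from -0.32 to 1.41 among the 14 members with a match (median 0.61) and from -0.08 to 1.18 among the 19 without one (median 0.42). The ranges overlapped, so that a match stood in promoters of members with large and with small differences alike. It is a description of the letters only.

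Across the 5 groups, 34 of the 40 members (85%) differed at an adjusted p under 0.05 (limma moderated F test, Benjamini-Hochberg over all genes tested), against 34.3% of all genes. The range between the highest and lowest group mean was 1.20 in the median member and 0.43 in the median gene. The 6 members that did not pass were Orc1, Orc6, Cdt1, Pola1, Pold1 and Rpa2. Both BCL2 founders were at the bottom: the lowest group mean was that of tethBCL2 in 25 members and that of MRP8hBCL2 in 15, and no member had its lowest mean in another group. The highest mean was that of AML post MDS in 27 members, HR-MDS in 6, MRP8NRASD12 in 5 and tethBCL2 in 2. In these bulk samples fewer dividing cells and less RNA per cell cannot be told apart.

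The median of the 40 members was 8.58, 8.29 and 8.34 in MRP8NRASD12, 8.03, 8.12 and 8.18 in tethBCL2, 8.32, 8.58 and 8.40 in HR-MDS, 8.0, 7.97 and 8.47 in MRP8hBCL2 and 9.09, 8.62 and 8.60 in AML post MDS mice. AML post MDS arrays were the highest, and tethBCL2 arrays did not overlap with MRP8NRASD12 or HR-MDS arrays. In MRP8hBCL2 mice 1 array stood apart: 3391 was the highest of its group in 37 of 40 members, by 0.62 over the mean of the other two in the median member. AML post MDS 3622 was the highest of its group in 39 of 40 members, HR-MDS 8019 in 34, and HR-MDS 8398 was the lowest of its group in 29. In the median over all genes tested, 3391, 3622 and 8019 were also the highest of their groups and 8398 the lowest.

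**Figure D1:**
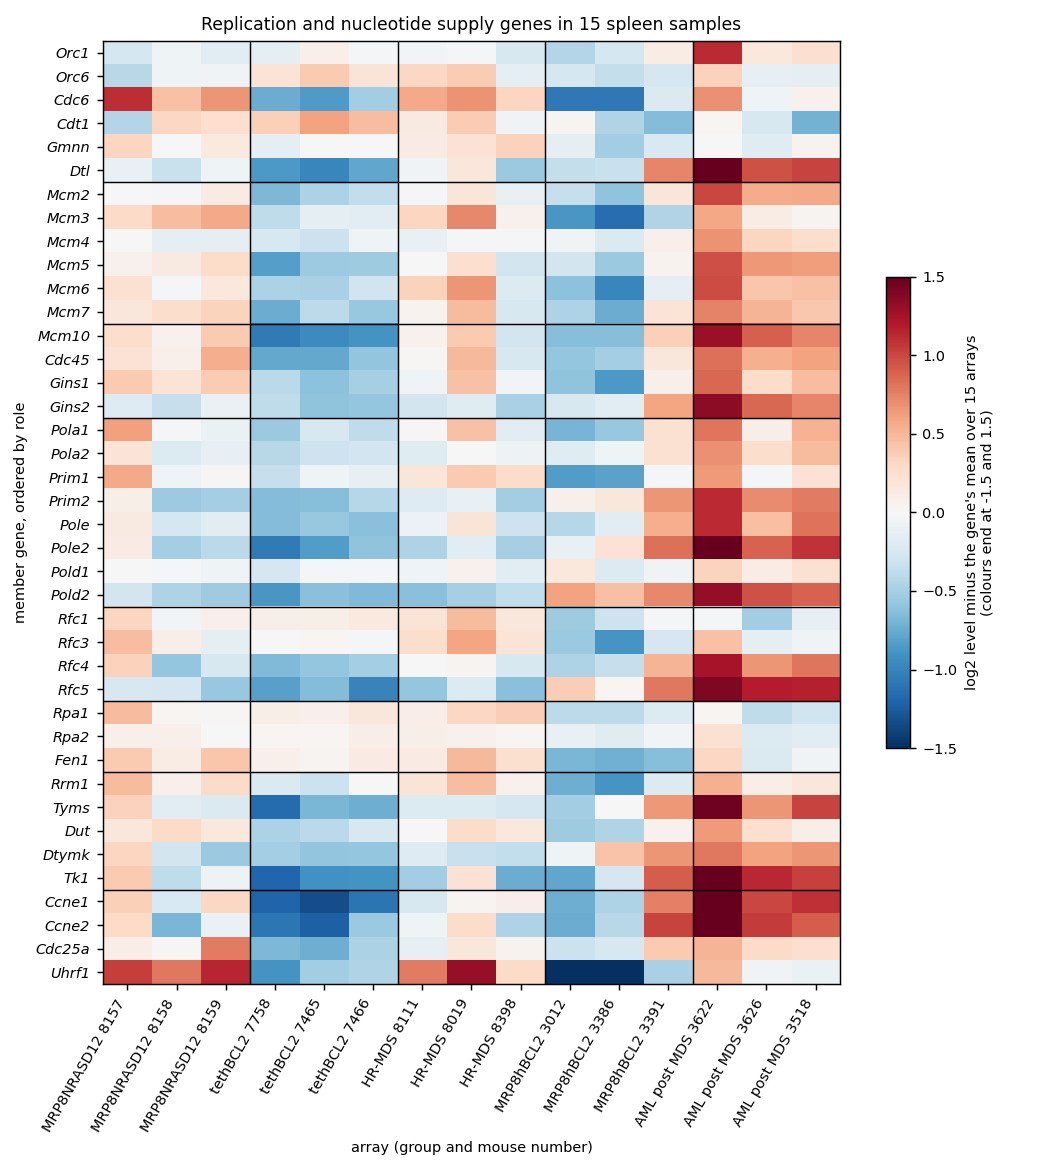
Levels of the 40 members (rows, ordered by role with lines between roles) in the 15 arrays (columns, by group and mouse number), as the log2 level minus the gene's mean over all arrays (red above, blue below). The AML post MDS arrays are mostly red, the tethBCL2 arrays and MRP8hBCL2 3012 and 3386 mostly blue, and MRP8hBCL2 3391 lies between.

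Whether adding NRASD12 to a BCL2 transgene moved these genes was asked first for HR-MDS. Compared with tethBCL2 mice, 37 of 40 members had a higher mean in HR-MDS mice, with a median log2 fold change of 0.48 (0.04 over all genes). The largest differences were those of Uhrf1, 1.41 ± 0.31 (adjusted p = 0.068), Cdc6, 1.22 ± 0.25 (adjusted p = 0.055), Ccne1, 1.18 ± 0.31 (adjusted p = 0.124), and Mcm10, 1.03 ± 0.25 (adjusted p = 0.0943), each ± SE with limma's adjusted p. None of the 40 members passed the adjusted test (0.424% of all genes passed as higher), nor any by the methods' t-test after adjustment. At an unadjusted p under 0.05, 18 members were higher and none lower in limma (8.4% of all genes higher), and 22 were higher by the methods' t-test (10.7%). In 30 members (75%) the lowest HR-MDS array exceeded the highest tethBCL2 array, as in 16.6% of all genes; for each of them the exact two-sided permutation p was 0.1, the smallest that 3 arrays against 3 allow. Without HR-MDS 8398, Cdc6, Mcm10 and Uhrf1 passed, and 1.22% of all genes were called higher. With any other array of the comparison left out, 0.0404% or 0.0673% of all genes were (6 or 10 genes). With all arrays, all 13 neutrophil markers, 3 of 12 stem and progenitor markers and 2 of 11 monocyte and macrophage markers rose in the same comparison. The 13 neutrophil calls could not all hold in the fits that called 6 or 10 genes. The part of these markers in the members' levels was not tested. The stem and progenitor list includes Elane, Ctsg, Mpo and Prtn3, primary granule genes of early myeloid cells.

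Against MRP8NRASD12 mice, the other founder, HR-MDS mice showed no member past the adjusted test (0.0135% of all genes were called higher). At an unadjusted p under 0.05, Orc6 was higher, at 0.36 ± 0.16 (2.52% of all genes were higher), and by the methods' t-test no member was (1.94% of all genes). The median was -0.04, from -0.33 (Tk1) to 0.36 (Orc6), with 16 members above 0 and 24 below. With quantile normalization Dtl, Mcm4, Prim2 and Rpa2 changed sign, and with array medians subtracted Rpa2 did. In no member were the arrays of both groups apart, and no share over all genes is set beside this. The HR-MDS mean lay between those of its founders in 27 members and above both in the other 13; the AML post MDS mean lay between its founders in 11 members and above both in 29.

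In AML post MDS mice compared with MRP8hBCL2 mice, all 40 members had a higher mean, with a median of 0.84 (0.03 over all genes), and 14 members (35%) were upregulated, against 1.29% of all genes. They were Dtl, Mcm2, Mcm3, Mcm5, Mcm6, Mcm10, Cdc45, Gins1, Gins2, Rfc5, Fen1, Rrm1, Ccne1 and Uhrf1, and none fell. The arrays did not overlap in 28 members (70%), as in 11% of all genes. The count rested on single arrays. It was 30 without MRP8hBCL2 3391 (3.89% of all genes higher), 0 without MRP8hBCL2 3012 (0.108%), MRP8hBCL2 3386 (0.0538%) or AML post MDS 3622 (0.242%), 2 without AML post MDS 3626 (0.236%) and 4 without AML post MDS 3518 (0.424%), and none of the 14 passed with every one of the 6 arrays left out in turn. Calls over all genes thus fell and rose with the same arrays. The median of the members was 1.09 without MRP8hBCL2 3391, 0.69 without 3012, 0.70 without 3386 and 0.66 without AML post MDS 3622. Neutrophil markers rose in 2 of 13 here, and stem and progenitor markers in 0 of 12.

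The HR-MDS and AML post MDS comparisons with their BCL2 founders share no array. Both gave a higher mean for 37 members, while Orc1, Orc6 and Cdt1 were below 0 in HR-MDS and above it in AML post MDS. The share of all genes with a higher mean in both was not counted. The change from the BCL2 founder was more positive in AML post MDS in 34 of 40 members, with Gmnn and Rpa2 changing sign under quantile normalization and Gmnn, Rpa1 and Uhrf1 with array medians subtracted. The difference of the changes, tested in the same model, passed for no member and for 0% of all genes; its median was -0.33 (HR-MDS minus AML post MDS). At an unadjusted p under 0.05, Orc1, Fen1 and Gins2 were below 0 (2.05% of all genes), at -0.77, -0.49 and -0.70, and none was above it.

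**Figure D2:**
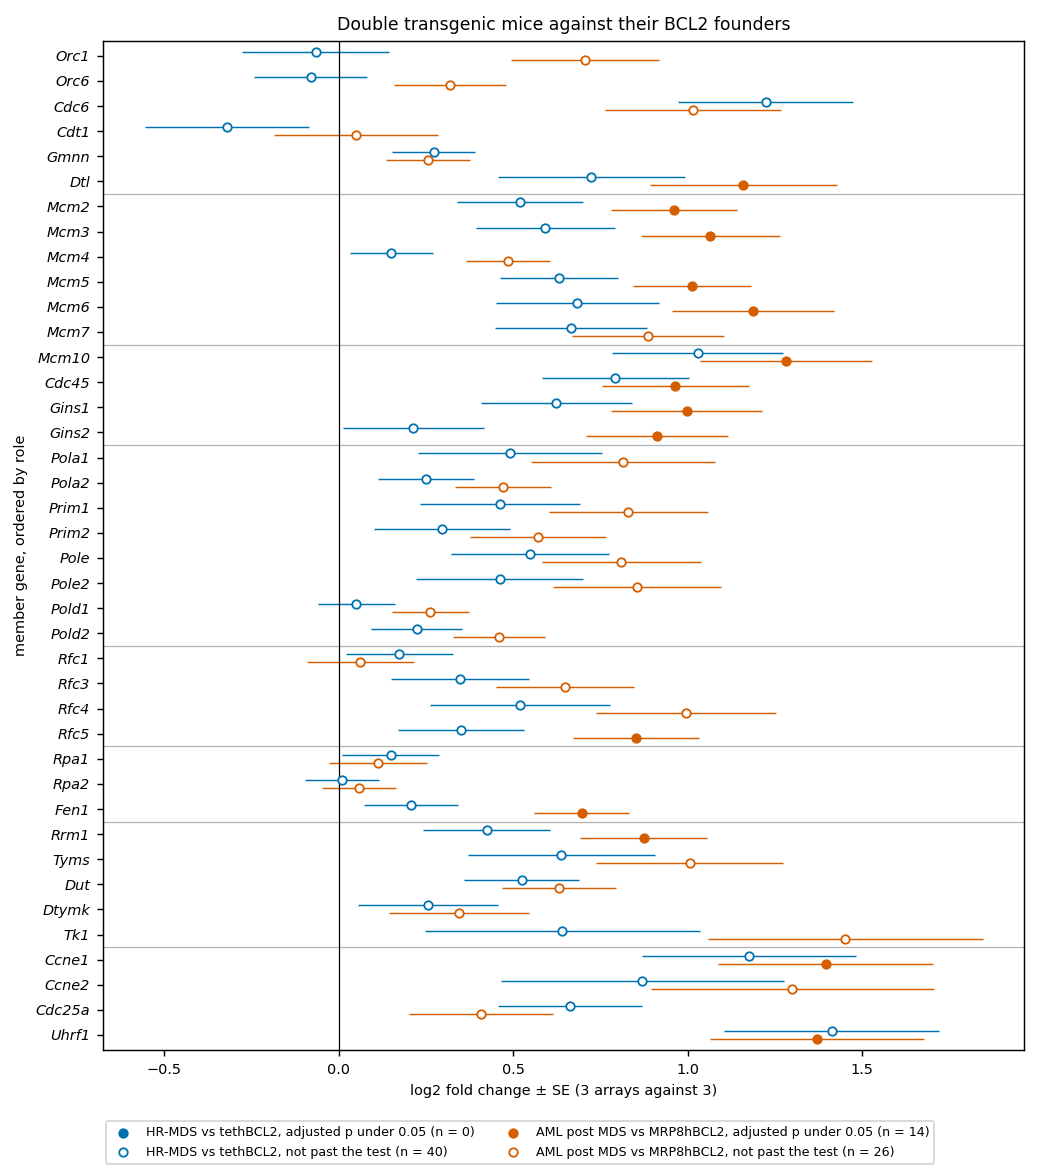
Log2 fold change ± SE of each member (rows) in HR-MDS against tethBCL2 mice (blue) and in AML post MDS against MRP8hBCL2 mice (orange), 3 arrays against 3; filled points have an adjusted p under 0.05. Most points lie right of 0, 14 of the orange points are filled and none of the blue.

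The founders were then compared with each other. In tethBCL2 mice 10 members were lower than in MRP8NRASD12 mice (25%, against 5.98% of all genes) and none was higher (2.85% of all genes), with a median of -0.49. They were Cdc6, Mcm5, Mcm7, Mcm10, Cdc45, Gins1, Dut, Ccne1, Cdc25a and Uhrf1, and Cdc6, Mcm10 and Uhrf1 passed with any 1 of the 6 arrays left out. Without MRP8NRASD12 8159 the count was 3, without tethBCL2 7758 it was 4 and without tethBCL2 7465 it was 5. Over all genes 2.93%, 3.15% and 3.12% were then lower, so that calls over all genes fell too. All 13 neutrophil markers, 10 of 12 stem and progenitor markers and 9 of 11 monocyte and macrophage markers were lower as well, and their part was not tested. In MRP8hBCL2 mice 12 members were lower than in MRP8NRASD12 mice (30%, against 9.93% of all genes) and 3 higher (7.5%, against 12.2%). The higher ones were Prim2, Pold2 and Rfc5. Of the markers, 10 of 13 neutrophil genes were lower, Mmp9 and Retnlg by most (-4.86 and -4.67), and 7 of 8 T cell genes were higher, led by Cd3g of the T cell receptor complex (3.16); their part was not tested. Of all 15, Cdc6, Mcm3, Pold2, Rfc5, Fen1, Rrm1 and Uhrf1 passed with any 1 array left out. Without MRP8hBCL2 3386 the count was 7 (6.32% of all genes lower and 9.25% higher). Compared with MRP8NRASD12 mice, AML post MDS mice had 19 members higher (47.5%, against 13.6%) and none lower (8.74% of all genes). Without MRP8NRASD12 8158 the count was 11 (10% of all genes higher and 7.36% lower). Without AML post MDS 3622 it was 9 higher (9.89% of all genes) and 3 lower (8.29% of all genes).

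Among the licensing genes, Cdc6 and Dtl differed most and the origin recognition subunits little. Cdc6, the ATPase that brings the helicase to the origin, was at 7.94, 7.27 and 7.49 in MRP8NRASD12, 6.09, 5.99 and 6.31 in tethBCL2, 7.39, 7.51 and 7.15 in HR-MDS, 5.76, 5.76 and 6.62 in MRP8hBCL2 and 7.52, 6.77 and 6.89 in AML post MDS mice. The arrays of each BCL2 founder lay below all MRP8NRASD12 and HR-MDS arrays, and Cdc6 fell by 1.44 in tethBCL2 (adjusted p = 0.0047) and by 1.52 in MRP8hBCL2 mice (adjusted p = 0.000753) compared with MRP8NRASD12. Against MRP8hBCL2 it was at 1.02 ± 0.25 (adjusted p = 0.0556) in AML post MDS mice. Dtl, the substrate receptor that directs Cdt1 to degradation, was at 8.03, 7.81 and 8.08 in MRP8NRASD12, 7.29, 7.17 and 7.36 in tethBCL2, 8.09, 8.32 and 7.58 in HR-MDS, 7.78, 7.81 and 8.88 in MRP8hBCL2 and 9.70, 9.09 and 9.15 in AML post MDS mice. All AML post MDS arrays were above the arrays of every other group, the difference from HR-MDS being 1.32 ± 0.27 (adjusted p = 0.00262). Orc1, the largest subunit of the origin recognition complex, was at 5.68, 5.88 and 5.78 in MRP8NRASD12, 5.80, 6.02 and 5.92 in tethBCL2, 5.91, 5.92 and 5.71 in HR-MDS, 5.50, 5.68 and 6.05 in MRP8hBCL2 and 7.07, 6.10 and 6.19 in AML post MDS mice. It lay between 5.50 and 6.19 in all arrays but AML post MDS 3622, and its difference between AML post MDS and MRP8NRASD12 mice (0.67 ± 0.21, adjusted p = 0.0349) passed in 2 of the 6 fits with 1 array left out: it was lost without AML post MDS 3622 and without each MRP8NRASD12 array. Orc6, the smallest subunit, and Cdt1, which loads the helicase, were lower in MRP8hBCL2 than in tethBCL2 mice, at -0.55 ± 0.16 (adjusted p = 0.0228) and -0.83 ± 0.24 (adjusted p = 0.0206). Gmnn, whose product inhibits Cdt1, was lower in MRP8hBCL2 than in MRP8NRASD12 mice (-0.45 ± 0.12, adjusted p = 0.0151). Its values were low, at 4.92 to 5.78 and thus below every array median, and the call was lost without MRP8hBCL2 3386.

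The subunits of the MCM2-7 helicase, which unwinds DNA as a ring of 6 proteins, had higher means in both double transgenic groups than in their BCL2 founders. Mcm6 was at 9.67, 9.42 and 9.59 in MRP8NRASD12, 8.96, 8.95 and 9.14 in tethBCL2, 9.78, 10.10 and 9.23 in HR-MDS, 8.82, 8.46 and 9.29 in MRP8hBCL2 and 10.41, 9.86 and 9.87 in AML post MDS mice. HR-MDS arrays lay above tethBCL2 arrays, and AML post MDS arrays above MRP8hBCL2 arrays (1.19 ± 0.23, adjusted p = 0.0251). Mcm7 was at 9.46, 9.54 and 9.61 in MRP8NRASD12, 8.54, 8.89 and 8.72 in tethBCL2, 9.34, 9.76 and 9.05 in HR-MDS, 8.82, 8.53 and 9.48 in MRP8hBCL2 and 10.03, 9.79 and 9.68 in AML post MDS mice, with the same order of arrays, and passed in neither (0.67, adjusted p = 0.229 and 0.89, adjusted p = 0.0551). Mcm4 was at 9.58, 9.44 and 9.43 in MRP8NRASD12, 9.33, 9.25 and 9.51 in tethBCL2, 9.46, 9.55 and 9.54 in HR-MDS, 9.52, 9.36 and 9.65 in MRP8hBCL2 and 10.25, 9.89 and 9.84 in AML post MDS mice. Its tethBCL2, HR-MDS and MRP8NRASD12 arrays overlapped, while AML post MDS arrays were above all others (0.48 ± 0.12, adjusted p = 0.00999 against HR-MDS). Of the rest, Mcm2, Mcm3 and Mcm5 rose by 0.96, 1.07 and 1.01 in AML post MDS compared with MRP8hBCL2 mice, the adjusted p being 0.0234, 0.0234 and 0.0191. In MRP8hBCL2 against MRP8NRASD12 mice Mcm3 (-1.26 ± 0.20, adjusted p = 0.000561) and Mcm6 (-0.70 ± 0.23, adjusted p = 0.0463) were lower, while Mcm7, Mcm5, Mcm2 and Mcm4 were at -0.59, -0.42, -0.29 and 0.02 and did not pass; the sign of Mcm4 changed with quantile normalization. AML post MDS and HR-MDS mice differed in Mcm2, Mcm4 and Mcm5 but not past the test in Mcm3 (-0.13, adjusted p = 0.715), Mcm6 (0.34, adjusted p = 0.337) or Mcm7 (0.45, adjusted p = 0.161).

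All 4 genes that activate the loaded helicase rose in AML post MDS compared with MRP8hBCL2 mice (1.29% of all genes did). Of the 6 fits with 1 array left out, Mcm10 passed in 2, and Cdc45, Gins1 and Gins2 in 1 each. Mcm10, a scaffold that starts the helicase, was at 7.67, 7.47 and 7.80 in MRP8NRASD12, 6.34, 6.45 and 6.51 in tethBCL2, 7.47, 7.79 and 7.13 in HR-MDS, 6.77, 6.76 and 7.76 in MRP8hBCL2 and 8.70, 8.30 and 8.13 in AML post MDS mice. The tethBCL2 arrays were the lowest of all and the AML post MDS arrays the highest, and the rise over MRP8hBCL2 was 1.28 ± 0.25 (adjusted p = 0.0234). Cdc45, a cofactor that stays on the moving helicase, was at 7.96, 7.82 and 8.29 in MRP8NRASD12, 6.98, 6.98 and 7.16 in tethBCL2, 7.77, 8.23 and 7.50 in HR-MDS, 7.16, 7.23 and 7.91 in MRP8hBCL2 and 8.57, 8.28 and 8.35 in AML post MDS mice. HR-MDS and MRP8NRASD12 arrays overlapped, and tethBCL2 was lower than MRP8NRASD12 (-0.98 ± 0.21, adjusted p = 0.0121). Gins2, a GINS subunit, was at 7.59, 7.44 and 7.68 in MRP8NRASD12, 7.39, 7.18 and 7.20 in tethBCL2, 7.51, 7.60 and 7.30 in HR-MDS, 7.54, 7.62 and 8.38 in MRP8hBCL2 and 9.12, 8.65 and 8.51 in AML post MDS mice. MRP8NRASD12 and HR-MDS arrays overlapped, and AML post MDS was higher than HR-MDS by 1.29 ± 0.20 (adjusted p = 0.000433). Gins1, of the same complex, was at 0.41 ± 0.22 (adjusted p = 0.202) there and did not pass. It was lower in both BCL2 founders than in MRP8NRASD12 mice (-0.83, adjusted p = 0.0303 in tethBCL2 and -0.79, adjusted p = 0.0178 in MRP8hBCL2).

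Between AML post MDS and HR-MDS mice, 5 of the 8 polymerase and primase genes were higher (14.3% of all genes were), and Pola1, Pold1 and Prim1 did not pass. Pole, the catalytic subunit of polymerase epsilon of the leading strand, was at 7.64, 7.24 and 7.34 in MRP8NRASD12, 6.86, 6.93 and 6.87 in tethBCL2, 7.42, 7.69 and 7.19 in HR-MDS, 7.08, 7.34 and 8.05 in MRP8hBCL2 and 8.63, 7.95 and 8.32 in AML post MDS mice. HR-MDS and tethBCL2 arrays did not overlap, at 0.55 (adjusted p = 0.367), and AML post MDS was higher than HR-MDS by 0.86 ± 0.23 (adjusted p = 0.0132). Pola1, the catalytic subunit of polymerase alpha, was at 8.39, 7.77 and 7.68 in MRP8NRASD12, 7.23, 7.54 and 7.39 in tethBCL2, 7.79, 8.22 and 7.62 in HR-MDS, 7.09, 7.21 and 8.01 in MRP8hBCL2 and 8.58, 7.87 and 8.30 in AML post MDS mice, with MRP8NRASD12 8157 above the other arrays of its group, and passed in none of the 8 comparisons. Pold1, the catalytic subunit of polymerase delta, was at 8.28, 8.26 and 8.24 in MRP8NRASD12, 8.04, 8.26 and 8.26 in tethBCL2, 8.23, 8.36 and 8.12 in HR-MDS, 8.44, 8.08 and 8.24 in MRP8hBCL2 and 8.63, 8.40 and 8.52 in AML post MDS mice. All of its values lay within 8.04 to 8.63, and it passed in none of the 8 comparisons either. Its partner Pold2, a second subunit of polymerase delta, was higher in AML post MDS than in HR-MDS mice by 1.55 ± 0.13 (adjusted p = 5.38e-06) and in MRP8hBCL2 than in tethBCL2 mice by 1.31 ± 0.13 (adjusted p = 1.51e-05). Pole2, the second subunit of polymerase epsilon, had the same pattern, at 1.54 ± 0.24 (adjusted p = 0.000403) and 1.15 ± 0.24 (adjusted p = 0.00344). Of the primase subunits, Prim2, the regulatory one, was in the same order of comparisons at 1.15 ± 0.20 (adjusted p = 0.000759) and 0.87 ± 0.20 (adjusted p = 0.00521), and Prim1, the catalytic one, at -0.01 (adjusted p = 0.985) and -0.38 (adjusted p = 0.289); the sign of the first changed when array medians were subtracted. Pola2, the accessory subunit of polymerase alpha, was higher in AML post MDS than in HR-MDS mice (0.56 ± 0.14, adjusted p = 0.00895).

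The 4 measured subunits of the RFC clamp loader, which places the PCNA ring on DNA, did not move together: Rfc5 and Rfc4 were higher and Rfc1 lower in AML post MDS than in HR-MDS mice. Rfc5 was at 8.75, 8.73 and 8.42 in MRP8NRASD12, 8.18, 8.34 and 7.99 in tethBCL2, 8.41, 8.78 and 8.36 in HR-MDS, 9.35, 9.02 and 9.78 in MRP8hBCL2 and 10.39, 10.16 and 10.15 in AML post MDS mice. The 6 MRP8hBCL2 and AML post MDS arrays were all above the 9 others, and AML post MDS was above HR-MDS by 1.72 ± 0.18 (adjusted p = 2.08e-05). Rfc1, the large subunit, was at 9.05, 8.70 and 8.81 in MRP8NRASD12, 8.83, 8.82 and 8.89 in tethBCL2, 8.94, 9.21 and 8.91 in HR-MDS, 8.21, 8.43 and 8.71 in MRP8hBCL2 and 8.70, 8.22 and 8.61 in AML post MDS mice. Here AML post MDS was below HR-MDS, at -0.51 ± 0.15 (adjusted p = 0.0263), with no overlap of their arrays. Rfc4 was at 9.04, 8.11 and 8.45 in MRP8NRASD12, 8.03, 8.11 and 8.18 in tethBCL2, 8.69, 8.73 and 8.45 in HR-MDS, 8.23, 8.35 and 9.20 in MRP8hBCL2 and 9.92, 9.35 and 9.49 in AML post MDS mice, and AML post MDS was above HR-MDS by 0.96 ± 0.26 (adjusted p = 0.0146), while Rfc3 was at -0.27 (adjusted p = 0.387). In MRP8hBCL2 compared with MRP8NRASD12 mice Rfc5 was higher (0.75 ± 0.18, adjusted p = 0.0088) and Rfc3 lower (-0.70 ± 0.20, adjusted p = 0.0212).

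Of the RPA and lagging strand genes, Rpa2 was nearly level and Fen1 was lowest in MRP8hBCL2 mice. Rpa2, the middle subunit of RPA, was at 9.13, 9.14 and 9.06 in MRP8NRASD12, 9.08, 9.08 and 9.15 in tethBCL2, 9.14, 9.12 and 9.08 in HR-MDS, 8.95, 8.88 and 9.02 in MRP8hBCL2 and 9.28, 8.84 and 8.89 in AML post MDS mice. Its values spanned 8.84 to 9.28 and it passed in no comparison. Rpa1, the large subunit, was at 9.97, 9.53 and 9.51 in MRP8NRASD12, 9.58, 9.57 and 9.66 in tethBCL2, 9.60, 9.80 and 9.86 in HR-MDS, 9.10, 9.11 and 9.29 in MRP8hBCL2 and 9.52, 9.12 and 9.20 in AML post MDS mice. AML post MDS was below HR-MDS (-0.48 ± 0.14, adjusted p = 0.0229) and MRP8hBCL2 below tethBCL2 (-0.44 ± 0.14, adjusted p = 0.0356). Fen1, the nuclease that trims Okazaki fragments, was at 8.59, 8.31 and 8.61 in MRP8NRASD12, 8.27, 8.24 and 8.32 in tethBCL2, 8.32, 8.69 and 8.44 in HR-MDS, 7.52, 7.47 and 7.56 in MRP8hBCL2 and 8.51, 7.98 and 8.14 in AML post MDS mice. The MRP8hBCL2 arrays were below those of all other groups (-0.76 ± 0.14, adjusted p = 0.00118 against tethBCL2), and AML post MDS was above MRP8hBCL2 by 0.70 ± 0.14 (adjusted p = 0.025).

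**Figure D3:**
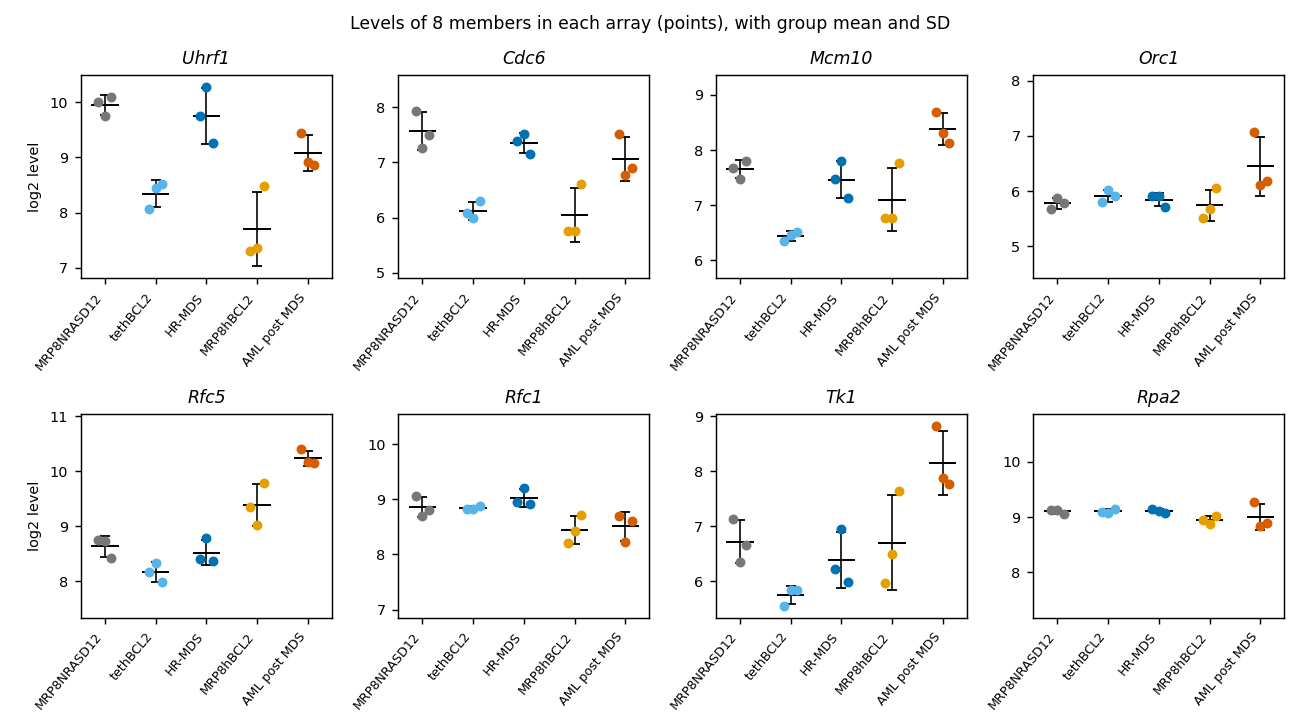
Log2 levels of Uhrf1, Cdc6, Mcm10, Orc1, Rfc5, Rfc1, Tk1 and Rpa2 in each array (points; 3 per group), with the group mean (line) and SD (bar), on axes of equal span. Uhrf1 and Cdc6 are lowest in the BCL2 founders, Rfc5 is highest in MRP8hBCL2 and AML post MDS mice, and Rpa2 is nearly level.

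Of the nucleotide supply genes, the 3 of thymidine nucleotides (Tk1, Tyms and Dtymk) were higher in AML post MDS than in HR-MDS mice. Tk1, the cytosolic thymidine kinase of S phase, was at 7.14, 6.36 and 6.66 in MRP8NRASD12, 5.56, 5.84 and 5.85 in tethBCL2, 6.22, 6.96 and 5.99 in HR-MDS, 5.97, 6.49 and 7.65 in MRP8hBCL2 and 8.82, 7.87 and 7.77 in AML post MDS mice. AML post MDS arrays were the highest, with MRP8hBCL2 3391 close to them, and the difference from HR-MDS was 1.76 ± 0.39 (adjusted p = 0.00494). Tyms, thymidylate synthase, was at 7.03, 6.50 and 6.46 in MRP8NRASD12, 5.52, 6.0 and 5.95 in tethBCL2, 6.48, 6.48 and 6.42 in HR-MDS, 6.16, 6.67 and 7.33 in MRP8hBCL2 and 8.14, 7.34 and 7.70 in AML post MDS mice, and it too was higher in AML post MDS than in HR-MDS mice (1.27 ± 0.27, adjusted p = 0.00343) and in MRP8hBCL2 than in tethBCL2 mice (0.90 ± 0.27, adjusted p = 0.0264). Tyms has a pseudogene, Tyms-ps, from which its probes may not tell it apart, so that its level is less certain. Dtymk, which phosphorylates thymidylate, was at 9.23, 8.64 and 8.36 in MRP8NRASD12, 8.41, 8.32 and 8.34 in tethBCL2, 8.71, 8.57 and 8.55 in HR-MDS, 8.85, 9.34 and 9.58 in MRP8hBCL2 and 9.70, 9.52 and 9.57 in AML post MDS mice. The 6 MRP8hBCL2 and AML post MDS arrays lay above all tethBCL2 arrays, and both comparisons passed (0.99 ± 0.20, adjusted p = 0.00259 and 0.90 ± 0.20, adjusted p = 0.00507). Rrm1, the large subunit of ribonucleotide reductase, rose in AML post MDS compared with MRP8hBCL2 mice (0.87 ± 0.18, adjusted p = 0.0301) and was at 0.02 (adjusted p = 0.947) compared with HR-MDS mice, with the sign changed under quantile normalization. Dut, which hydrolyses dUTP and makes the precursor of thymidylate, was lower in both BCL2 founders than in MRP8NRASD12 mice, at -0.58 ± 0.16 (adjusted p = 0.0429) in tethBCL2 and -0.51 ± 0.16 (adjusted p = 0.04) in MRP8hBCL2.

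Among the genes of entry into S phase and of chromatin copying, Uhrf1 had the largest difference of all members between HR-MDS and tethBCL2 mice. Uhrf1, which brings the maintenance DNA methyltransferase to newly copied DNA, was at 10.01, 9.76 and 10.11 in MRP8NRASD12, 8.07, 8.44 and 8.52 in tethBCL2, 9.74, 10.27 and 9.26 in HR-MDS, 7.29, 7.35 and 8.48 in MRP8hBCL2 and 9.45, 8.91 and 8.87 in AML post MDS mice. HR-MDS and MRP8NRASD12 arrays overlapped and lay above all tethBCL2 and MRP8hBCL2 arrays. It fell by 1.61 in tethBCL2 (adjusted p = 0.00686) and by 2.25 in MRP8hBCL2 mice (adjusted p = 0.000192) compared with MRP8NRASD12, and in AML post MDS it was above MRP8hBCL2 by 1.37 ± 0.31 (adjusted p = 0.0385). Unlike most members it was not highest in AML post MDS mice, which were at -0.88 (adjusted p = 0.0557) against MRP8NRASD12. Ccne1, which encodes cyclin E1, was at 7.72, 7.14 and 7.67 in MRP8NRASD12, 6.17, 6.03 and 6.27 in tethBCL2, 7.12, 7.40 and 7.47 in HR-MDS, 6.63, 6.90 and 8.12 in MRP8hBCL2 and 9.01, 8.37 and 8.46 in AML post MDS mice. The tethBCL2 arrays were the lowest and AML post MDS the highest, and the rise over MRP8hBCL2 was 1.40 ± 0.31 (adjusted p = 0.0351) and over HR-MDS 1.28 ± 0.31 (adjusted p = 0.00752). Cdc25a, the phosphatase that frees the cyclin E kinase from inhibition, was at 8.91, 8.83 and 9.58 in MRP8NRASD12, 8.13, 8.08 and 8.33 in tethBCL2, 8.69, 8.98 and 8.86 in HR-MDS, 8.49, 8.57 and 9.20 in MRP8hBCL2 and 9.32, 9.10 and 9.07 in AML post MDS mice. All tethBCL2 arrays were below those of the other groups, and the difference from MRP8NRASD12 passed (-0.93 ± 0.21, adjusted p = 0.0145). Ccne2, which encodes cyclin E2, was higher in AML post MDS than in HR-MDS (1.34 ± 0.41, adjusted p = 0.0274) and MRP8NRASD12 mice (1.41 ± 0.41, adjusted p = 0.0223).

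AML post MDS and HR-MDS mice were compared directly next. Of the 40 members, 18 were higher in AML post MDS (45%, against 14.3% of all genes) and 2, Rfc1 and Rpa1, were lower (5%, against 9.9%), with a median of 0.47. In the same comparison 7 of 12 stem and progenitor markers were higher, with the primary granule genes Elane (3.20), Ctsg (2.59), Mpo (2.31) and Prtn3 (1.96) in the lead. None of 13 neutrophil markers passed, while 4 of 8 T cell markers were higher and 2 lower, and 3 of 6 NK cell markers were higher. Their part in the members' levels was not tested. With any 1 of the 6 arrays left out, 13 of the 20 passed, among them Pold2, Rfc5, Pole2, Prim2, Gins2, Dtl, Tyms, Dtymk and Tk1. The BCL2 founders differ in the same BCL2 transgene and mouse numbers, without NRASD12; the disease groups also differ in age. Between the founders, 8 members were higher in MRP8hBCL2 than in tethBCL2 mice (20%, against 13.5% of all genes) and 5 were lower (12.5%, against 9.12%). Neither share of the members was far from that of all genes. Here 8 of 13 neutrophil markers (6.09 for Ngp, a granule protein), 9 of 12 stem and progenitor markers (4.60 for Mpo, myeloperoxidase), 4 of 7 germinal centre B cell markers and 5 of 8 T cell markers (2.68 for Cd3g) were higher, and their part was not tested. Without tethBCL2 7758 the count of 13 members was 8 (10.4% of all genes higher and 7.48% lower). Without tethBCL2 7465 it was 7 (10.1% higher and 7.19% lower). No array is shared by these 2 comparisons, but both set the lower mouse numbers against the higher ones. The agreement of signs and calls over all genes was not counted. In 25 members both differences were above 0, in 12 both were below it, and in Orc1, Mcm6 and Rrm1 they had opposite signs (in AML post MDS against HR-MDS, Rrm1 changed sign with quantile normalization and Prim1 with array medians subtracted). Dtl, Prim2, Pole2, Pold2, Rfc5, Tyms, Dtymk and Ccne1 were higher and Rpa1 was lower in both comparisons. Between the founders Rfc5 was at 1.22 ± 0.18, against 1.72 ± 0.18 between the disease groups.

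**Figure D4:**
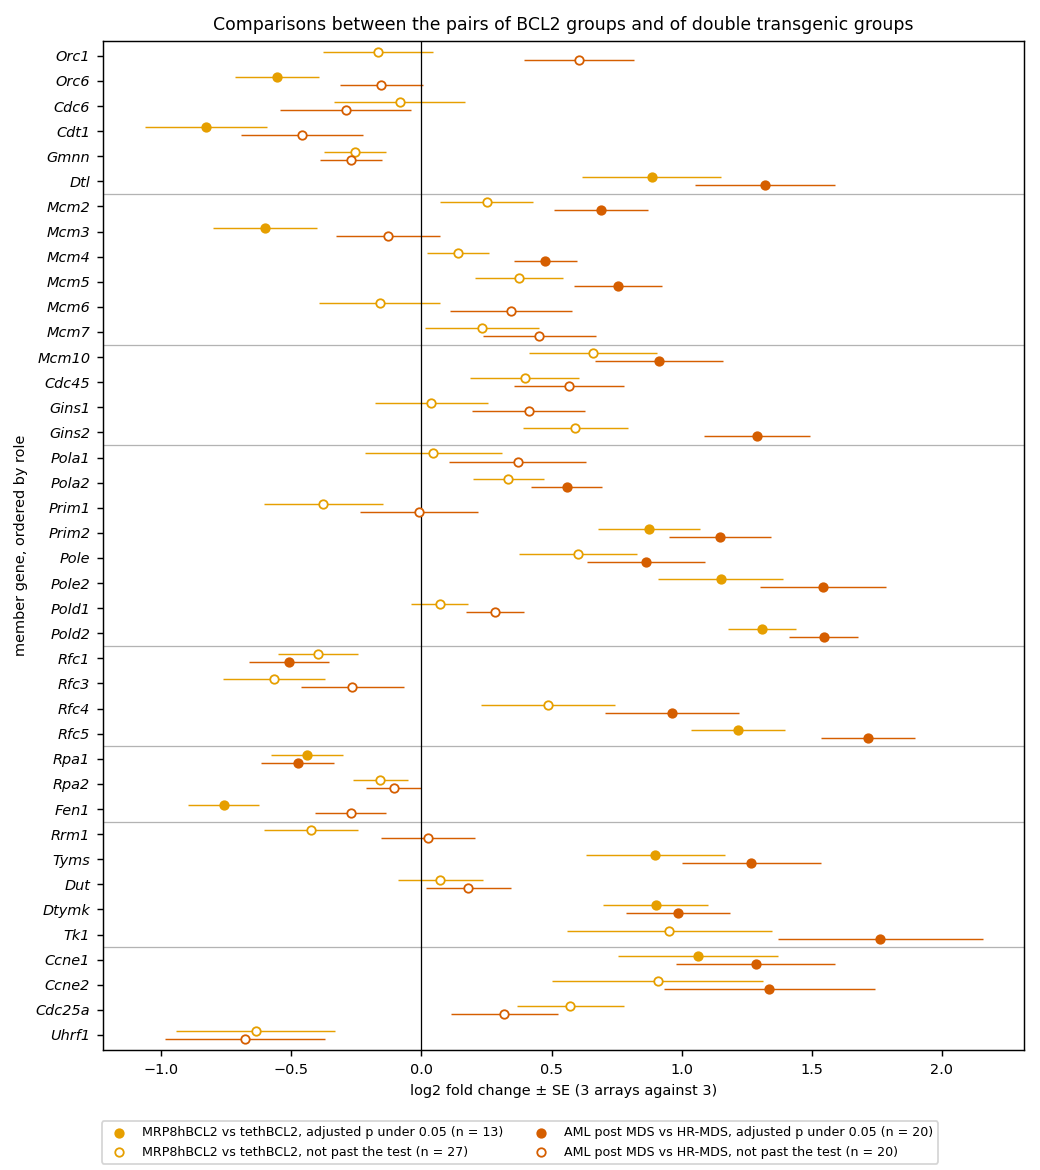
Log2 fold change ± SE of each member (rows) in MRP8hBCL2 against tethBCL2 mice (yellow) and in AML post MDS against HR-MDS mice (orange), 3 arrays against 3; filled points have an adjusted p under 0.05. Pold2, Rfc5, Pole2 and Prim2 are right of 0 in both, and Rfc1, Rpa1 and Fen1 left of it.

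Other genes of the same processes were counted from lists set by function. Of 18 mitosis genes, 6 were upregulated in HR-MDS over tethBCL2 mice (0.424% of all genes were), with a median of 1.34. Without HR-MDS 8398 the count was 9 (1.22% of all genes). With any other array of the comparison left out the count is not given, and 0.0404% or 0.0673% of all genes (6 or 10 genes) were higher. In AML post MDS compared with MRP8hBCL2 mice 13 of the 18 rose (1.29% of all genes did), with a median of 1.42. Without MRP8hBCL2 3391 the count was 17 (3.89% of all genes), and without AML post MDS 3622 it was 0 (0.242% of all genes). Mki67, a marker of dividing cells, rose by 2.12 ± 0.40 (adjusted p = 0.0395) and the kinase gene Plk1 by 1.98 ± 0.37 (adjusted p = 0.0375) in HR-MDS, and Bub1 of the spindle checkpoint by 1.82 ± 0.41 (adjusted p = 0.0378) in AML post MDS. In tethBCL2 compared with MRP8NRASD12 mice 16 of the 18 were lower (5.98% of all genes were). Of 42 other replication factors, none passed between HR-MDS and tethBCL2 mice, the smallest p being those of Top2a, which untangles copied DNA (1.49 ± 0.36, adjusted p = 0.101), and of the checkpoint mediator Clspn (0.95 ± 0.24, adjusted p = 0.106). In AML post MDS compared with MRP8hBCL2 mice 3 of the 42 rose (1.29% of all genes did). They were Top2a (1.65 ± 0.36, adjusted p = 0.0351) and the histone chaperone genes Asf1b (1.19 ± 0.27, adjusted p = 0.0389) and Chaf1b (0.96 ± 0.19, adjusted p = 0.0266). Without AML post MDS 3622 the count was 0 (0.242% of all genes), and without MRP8hBCL2 3391 it was 11 (3.89%). In AML post MDS compared with HR-MDS mice 16 of these 42 were higher (38.1%, against 14.3% of all genes) and 4 lower (9.52%, against 9.9%).

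Of the 16 genes of E2F, RB and related regulators, none passed between HR-MDS and tethBCL2 mice. E2f8, a repressor of the family, was at 1.46 ± 0.33 (adjusted p = 0.0802) there, and rose together with the activator E2f1 in AML post MDS compared with MRP8hBCL2 mice (1.46 ± 0.33, adjusted p = 0.0415 and 1.07 ± 0.18, adjusted p = 0.0204). In AML post MDS compared with HR-MDS mice E2f8, E2f1, E2f7 and E2f4 were higher, at 2.16, 1.37, 0.68 and 0.65, and no gene of the 16 was lower; the 4 are 25% of the list, against 14.3% of all genes. Of 13 G1 cyclins, kinases and inhibitors, none passed in HR-MDS against tethBCL2 mice, and Cdkn1a (1.28 ± 0.24, adjusted p = 0.0234) and Cdk4 (0.46 ± 0.11, adjusted p = 0.0484) rose in AML post MDS against MRP8hBCL2 mice. Of 34 other genes of nucleotide metabolism, none passed in HR-MDS, and Shmt1, Shmt2 and Mthfd2, enzymes of one-carbon metabolism that feeds thymidylate and purine synthesis, rose in AML post MDS against MRP8hBCL2 mice (0.89, 0.74 and 0.59, adjusted p = 0.0232, 0.0238 and 0.0232). In AML post MDS against MRP8hBCL2 mice 1.29% of all genes rose. Without AML post MDS 3622 no gene of these lists did (0.242% of all genes). Without MRP8hBCL2 3391, 5 of the 16, 5 of the 13 and 6 of the 34 rose (3.89% of all genes). In the comparison of AML post MDS with HR-MDS mice 10 of the 34 were higher (29.4%, against 14.3% of all genes) and 2 lower (5.88%, against 9.9%), led by the uridine-cytidine kinase Uck2 (2.19 ± 0.22, adjusted p = 1.41e-05), which was also higher in MRP8hBCL2 than in tethBCL2 mice (2.04 ± 0.22, adjusted p = 2.34e-05).

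**Figure D5:**
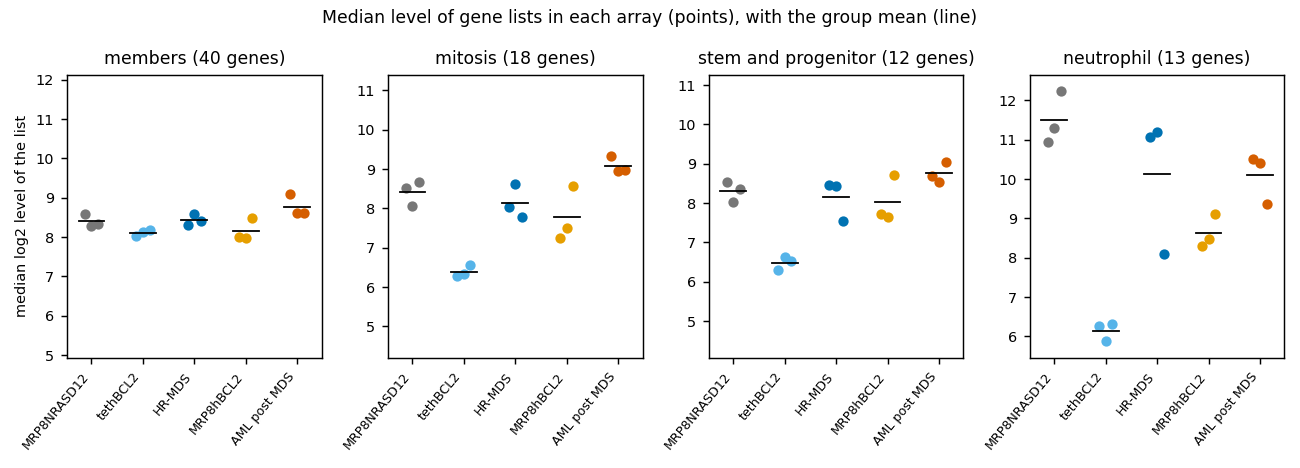
Median log2 level of the 40 members, 18 mitosis genes, 12 stem and progenitor markers (primary granule genes among them) and 13 neutrophil markers in each array (points, 3 per group), with the group mean (line), on axes of equal span. The mitosis, stem and progenitor and neutrophil lists are lowest in tethBCL2 arrays, and MRP8hBCL2 3391 is above the other arrays of its group in each.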

How the data were processed

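Total RNA of Sca1+ mononuclear spleen cells, sorted with microbeads, was hybridized to Affymetrix Mouse Exon 1.0 ST arrays, 1 mouse per array. The deposited values are log2 levels, 1 for each probe set in each array. The authors worked with EASANA, FAST DB (build mm9) and Expression Console. The sources used here do not give the method that summarized the probes or scaled the arrays.

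Of 23332 probe sets, 14996 carried 1 gene symbol, 1019 several and 7317 none, and those with several or none were left out. Of the 14996, 14941 matched a RefSeq gene. For 135 genes with several probe sets the brightest by its mean was kept, which left 14860 genes. Each measured member had 1 probe set. Comparisons were made by two-sided tests of limma (version 3.58.1, R 4.3.3) on the means of 5 groups of 3 arrays, fitted together, with Benjamini-Hochberg adjustment over all genes. A gene was called at an adjusted p under 0.05. The methods name unpaired analyses and a paired Student test in 1 sentence; the unpaired form was run and is called the methods' t-test. Single genes were also compared by exact permutation of 3 arrays against 3. The members and lists were chosen with earlier results of these data known. Values in every array are given for the members of each role with the largest (2) and the smallest (1) absolute difference between HR-MDS and tethBCL2, and of other lists at most 4 called genes with the largest differences are named, or up to 2 with the smallest p. The genes of the promoters shown were chosen after their values were seen. Alternatives were quantile normalization, subtraction of array medians, leaving out the lowest 0.25 of genes by mean, a model of only the arrays compared, trend and robust moderation, array weights, averaging probe sets per gene, leaving out each array in turn and leaving out MRP8NRASD12 8157 and HR-MDS 8398 together. The steps were tested on simulated data. Tables and figures were made with Python 3.11.15, pandas 2.3.3 and matplotlib 3.10.9. Precision is limited by the 3 arrays of a group. That the arrays come from separate mice is taken from the mouse numbers in the titles.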

Additional observations from a re-analysis of the deposited data

How the results depend on the processing

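The direction of called members was stable where it could change, and the number called was not. The 91 calls of a member in a comparison kept their direction in every alternative run on them, and the call was lost in 183 of 546 in which 1 array was left out and in 118 of 819 others. The median difference of the members moved by more than the SD between arrays (0.203) in 1 of 139 alternatives, AML post MDS against MRP8hBCL2 without MRP8hBCL2 3391 (1.09 against 0.84; 0.66 to 1.09 with 1 array left out). Among members not called, the sign changed under scaling in a few comparisons; besides those named above, quantile normalization turned Pola2 and Rfc4 in MRP8hBCL2 against MRP8NRASD12 and Cdc25a in AML post MDS against MRP8NRASD12, and subtracting array medians turned Rfc3 and Rrm1 in the latter. The causes of the changes in counts were not tested. The counts that follow have no share over all genes beside them. Changes particular to the members and changes over all genes cannot be told apart from them. For HR-MDS against tethBCL2, with 0 members called, the count was 3 with quantile normalization, 3 with array medians subtracted, 2 without the dimmest genes, 4 with only the arrays compared, 7 with array weights, 2 without MRP8NRASD12 8157 and HR-MDS 8398, and 0 to 3 with 1 array left out. For AML post MDS against MRP8hBCL2 (14) it was 29, 30 and 33 with quantile normalization, array medians subtracted and array weights, 0 with only the arrays compared, 0 with the methods' t-test, and 0 to 30 with 1 array left out. By the methods' t-test it was 2 for AML post MDS against MRP8NRASD12 (19; 11 to 19 with 1 array left out), 6 for AML post MDS against HR-MDS (20), 0 for tethBCL2 against MRP8NRASD12 (10), 2 for MRP8hBCL2 against MRP8NRASD12 (15) and 5 for MRP8hBCL2 against tethBCL2 (13). The count for tethBCL2 against MRP8NRASD12 was 16 with quantile normalization and 3 to 11 with 1 array left out. For MRP8hBCL2 against MRP8NRASD12 it was 6 with only the arrays compared, 23 with array weights and 7 to 22 with 1 array left out, and for MRP8hBCL2 against tethBCL2 it was 21 with quantile normalization, 20 with array medians subtracted, 24 with array weights and 7 to 17 with 1 array left out. No paired analysis was possible because the mouse numbers in the titles are not shared between groups.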
